A study of Rattus norvegicus with 6 samples.

Results

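Rab proteins are small GTPases that mark the membranes of a cell and steer the vesicles that travel between them. Each Rab cycles between a GDP-bound form held in the cytosol and a GTP-bound form on a membrane, where it recruits motors, tethers and fusion factors. In pancreatic islets they are best known from the insulin granule, whose docking and release involve Rab3a and Rab27a, and from the endosomes that recycle receptors and transporters at the surface of the beta cell. The Rab family was followed here in islets isolated by collagenase digestion from male Wistar rats of 2 ages, 3 months and 12 months, with 3 arrays of each age that measured total RNA in a single colour (Cy3). The 3-month animals served as controls, the labels name no transgene or treatment for either age, and both groups were whole islets, which hold endocrine, endothelial, mesenchymal, immune and nerve cells. In such bulk RNA, fewer cells of a type and less RNA per cell cannot be told apart. All genes whose symbol is Rab followed by a number and at most 1 letter were taken, which gave 52 Rab GTPase genes out of 13888 genes that a probe could be matched to. Of these, 48 reached the tested set, which asked for signal well above background on 3 or more of the 6 arrays, out of 11189 named genes tested. A further 6 symbols that begin the same way (Rab11fip2, Rab11fip4, Rab3gap2, Rab3il1, Rab3ip and Rab5if) belong to partners or regulators and were not counted as family members. Rab22a, Rab29, Rab37, Rab42, Rab44 and Rab4a had no matched probe and were not analysed here.

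Of the 52 genes, 44 were above background on all 6 arrays. The 4 genes not tested were Rab27b, Rab33b, Rab36 and Rab43. Rab27b and Rab36 were not above background on any array, and Rab33b and Rab43 were above it on 2 of the 3-month arrays and on no 12-month array. The 12-month arrays were the dimmer ones over background: 59.5% to 64.2% of all probes stood well above it, against 73.1% to 77.5% on the 3-month arrays, and the median raw intensity of the negative control spots was 89.5 to 91 against 29.5 to 31. Since each age had a scan to itself, scan and age cannot be told apart. The arrays correlated at r = 0.941 to 0.977 within an age and at 0.888 to 0.956 across ages, over probes. Beta cell markers and markers of the other endocrine cells were above background throughout, the 6 and 8 matched members of these lists being detected on all 6 arrays.

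Rab10 and Rab21 read higher in islets of 12-month-old than of 3-month-old rats and passed the test, both close to the threshold (limma, adjusted p = 0.0474 and 0.0434). With each array left out in turn, Rab10 kept the call in 1 of 6 fits and Rab21 in 0 of 6. Rab5a passed the test with higher values at 12 months too, but its 3-month side was poorly measured, above background on 2 of 3 arrays. Rab20 also passed the test, with lower values at 12 months, but none of the 12-month arrays measured its probe above background, so no fall was shown. Rab5a organises fusion at the early endosome, Rab10 carries transporters such as GLUT4 to the cell surface, Rab21 moves integrins through early endosomes, and Rab20 has been placed on endosomes and phagosomes. No Rab gene of regulated secretion passed the test, and the shares of Rab genes that passed were near the shares over all named genes. The test was limma's moderated test on quantile-normalised log2 intensity over all 17941 probes tested, with Benjamini-Hochberg adjustment and a threshold of 0.05 for the adjusted p. By that rule 3 of 48 Rab genes (6.25%) were higher and 1 (2.08%, Rab20) was lower at 12 months, beside 4.88% higher and 2.98% lower of all named genes. At an unadjusted p under 0.05, 10 (20.8%) were higher and 6 (12.5%) lower, beside 13.6% and 16.9% of all named genes. The p-values measure the spread between these arrays, which the labels do not tie to single animals.

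The sequence before the start of each of these 4 genes is shown because they are the members that passed the test. It is the 250 bases upstream of the annotated start (RefSeq, rat assembly GRCr8), 5′ to 3′ on the strand of the gene, with matches to CACGTG, the E-box core that is its own reverse complement, and to GGGCGG or its reverse complement CCGCCC, the GC box, in capitals.
Rab5a: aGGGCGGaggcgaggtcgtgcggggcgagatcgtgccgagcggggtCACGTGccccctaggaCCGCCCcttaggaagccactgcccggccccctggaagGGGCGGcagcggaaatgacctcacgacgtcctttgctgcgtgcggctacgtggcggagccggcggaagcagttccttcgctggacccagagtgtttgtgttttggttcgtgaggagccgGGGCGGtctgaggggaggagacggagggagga
Rab10: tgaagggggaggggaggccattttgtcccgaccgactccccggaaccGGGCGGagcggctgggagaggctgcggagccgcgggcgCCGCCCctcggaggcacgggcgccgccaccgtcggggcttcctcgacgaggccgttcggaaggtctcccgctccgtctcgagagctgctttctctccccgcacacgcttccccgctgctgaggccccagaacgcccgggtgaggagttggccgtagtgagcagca
Rab21: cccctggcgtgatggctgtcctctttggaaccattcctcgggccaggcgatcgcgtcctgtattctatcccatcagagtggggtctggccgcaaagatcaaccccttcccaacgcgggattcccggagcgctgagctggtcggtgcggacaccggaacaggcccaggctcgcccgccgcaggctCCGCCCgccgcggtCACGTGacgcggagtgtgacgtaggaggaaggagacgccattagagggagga
Rab20: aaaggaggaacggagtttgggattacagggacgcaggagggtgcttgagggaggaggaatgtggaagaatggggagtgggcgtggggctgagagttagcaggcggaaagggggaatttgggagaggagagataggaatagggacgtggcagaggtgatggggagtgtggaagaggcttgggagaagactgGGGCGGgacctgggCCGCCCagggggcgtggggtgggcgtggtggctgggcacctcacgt

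The window of Rab5a lies at chr9:6720877-6721126 on the plus strand, that of Rab10 at chr6:32039555-32039804 on the minus strand, that of Rab21 at chr7:52814944-52815193 on the minus strand and that of Rab20 at chr16:84721177-84721426 on the plus strand. The E-box core began 204 bases before the start of Rab5a and 52 bases before the start of Rab21, and neither window of Rab10 or Rab20 held one. GC boxes stood in all 4 windows, 4 in that of Rab5a, 2 each in those of Rab10 and Rab20, and 1 in that of Rab21.

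Promoter windows were matched for 43 of the 52 Rab genes. Rab1b, Rab23, Rab24, Rab26, Rab2a, Rab2b, Rab33a, Rab36 and Rab38 had no entry. The E-box core was found in 3 of the 43 (6.98%; Rab21, Rab31 and Rab5a), against 7.57% of 9175 genes tested on the arrays that had a window and 5.79% of all 27457 windows. A GC box was found in 33 of the 43 (76.7%), against 51.2% of the tested genes and 32.4% of all windows. CCAAT or its reverse complement ATTGG was found in 15 (34.9%), against 36.2% and 34.3%. TATAAA or its reverse complement TTTATA was found in 0 of the 43, against 9.48% and 13.1%. The median GC content was 62.8% in the Rab windows, 58.0% in those of the tested genes and 52.0% over all, so the GC box count sits beside a base composition that already differed. These matches are letters in a window and were not tested for binding.

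The early endosome group held the largest measured rise of the family, that of Rab5a. Rab5a read 2.11, 4.12 and 3.61 on the 3-month arrays and 7.68, 6.75 and 9.40 on the 12-month arrays (log2 intensity). The groups did not overlap, with all 12-month arrays high. The difference was 4.66 ± 0.78 (SE, n = 3 arrays of each age) on the log2 scale (limma, adjusted p = 0.0214), 25.4-fold as measured. Its 95% interval ran from 2.81 to 6.52. Rab5a was above background on only 2 of the 3 arrays at 3 months, so its low side was poorly measured: with normexp background correction the difference was 2.00 (limma, adjusted p = 0.0509). Leaving out 1 array kept the Rab5a call without 3-month replicate 2 (0.0387) and without 12-month replicate 2 (0.0205), and the adjusted p was 0.0716 and 0.0647 without 3-month replicates 1 and 3 and 0.0753 and 0.0520 without 12-month replicates 1 and 3.

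Rab21 was the tightest of the changed genes. It read 10.96, 11.16 and 11.01 at 3 months and 11.95, 12.01 and 12.03 at 12 months. Every 12-month array was above every 3-month array, and the spread within an age was small beside the gap. The difference was 0.96 ± 0.21 (SE, n = 3) with a 95% interval of 0.45 to 1.46 (limma, adjusted p = 0.0434). With any 1 of the 6 arrays left out, Rab21 lost the call, the adjusted p running from 0.0616 without 12-month replicate 2 to 0.152 without 12-month replicate 1, while the difference kept between 0.92 and 1.01.

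Rab20 was the 1 Rab gene with a lower level at 12 months past the threshold, and it entered the test only through its 3-month values. It read 4.97, 4.21 and 4.19 at 3 months and 2.25, 2.20 and 2.13 at 12 months. The 3-month arrays were all higher, but no 12-month array was above background for this probe, so its 12-month level is only a bound (limma, adjusted p = 0.0106, on a measured difference of -2.26). The lowest signal well above background was 4.26 to 5.13 on the 12-month arrays and 2.89 to 3.17 on the 3-month arrays, so that of the 3-month values of Rab20 only 4.97 reached the lower end of the 12-month range. No fall can be read from these values and no fold is given, and with normexp background correction the difference was -0.26 (adjusted p = 0.275). Rab20 lost the call without 12-month replicate 1 (0.0545) and kept it without any other single array.

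The other early endosome genes did not pass. Rab17 came closest, passing under 5 of 18 alternatives, among them the authors' table (adjusted p = 0.0482), the filter for all 6 arrays (0.0374) and normexp (0.0332). Rab17, a Rab of epithelial recycling, read 10.22, 9.95 and 10.31 at 3 months and 9.31, 8.82 and 9.24 at 12 months, so the 12-month arrays were all low, with a difference of -1.04 ± 0.25 (SE, n = 3; limma, adjusted p = 0.0522). Rab31, which works between the trans-Golgi and endosomes, differed by -0.50 (adjusted p = 0.214) with groups that did not overlap. Rab5b and Rab5c, the close relatives of Rab5a, differed by 0.58 (0.190) and -0.38 (0.329). Of the 7 tested genes of the group, Rab21 and Rab5a passed with higher values, Rab5a with a poorly measured 3-month side. Rab20 passed with a 12-month level that is only a bound, and 4 did not pass. The shares over all named genes were 4.88% higher and 2.98% lower. Groups did not overlap for 3 that read higher, Rab5a among them, and 3 that read lower, Rab20 among them. Over all named genes these shares were 17.1% and 22.2%.

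**Figure D1:**
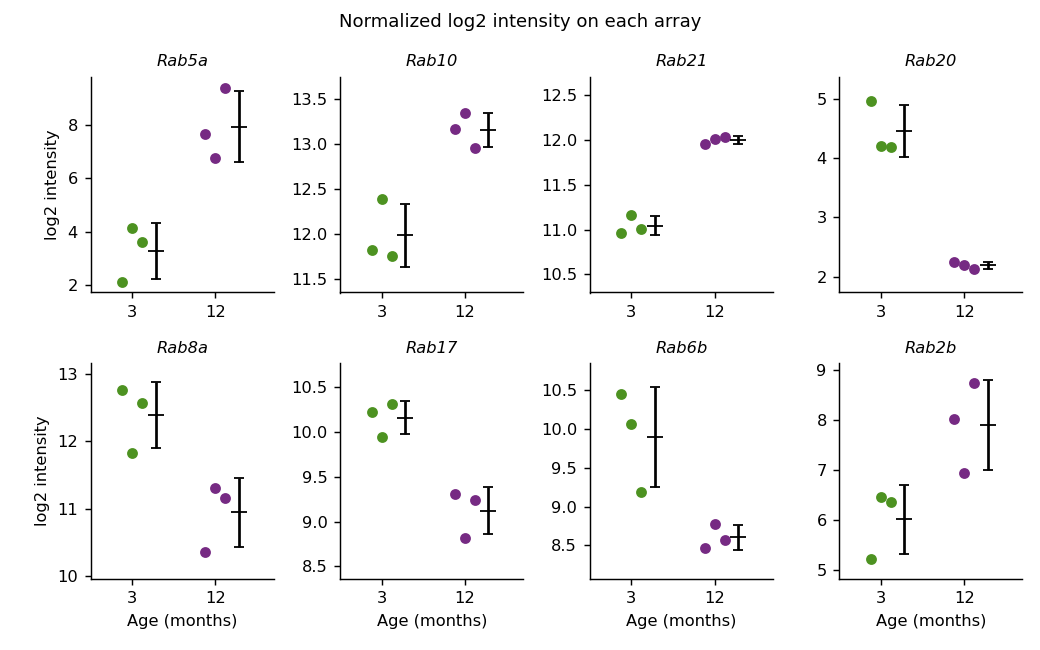
Normalised log2 intensity (vertical axis, its own range in each panel) of 8 Rab genes at 3 and 12 months; points are single arrays, and the bar beside them gives the mean and SD of 3 arrays. Rab5a, Rab10, Rab21 and Rab2b are higher on every 12-month array, Rab20, Rab8a, Rab17 and Rab6b lower on every one, and the 12-month values of Rab20 (2.13 to 2.25) are below the detection level of those arrays.

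Among the Rab genes of recycling and surface delivery, 1 of 11 rose and 0 fell, beside 4.88% and 2.98% of all named genes. At an unadjusted p under 0.05, 3 were higher and 1 lower, beside 13.6% and 16.9% of all named genes. Of the 11 differences 8 were positive (72.7%), beside 43.5% of all named genes. The median was 0.58 against -0.13 over all named genes. Rab10 read 11.82, 12.39 and 11.75 at 3 months and 13.17, 13.35 and 12.96 at 12 months. All 12-month arrays were above all 3-month arrays. The difference of Rab10 was 1.17 ± 0.27 (SE, n = 3), 2.26-fold, with a 95% interval of 0.53 to 1.82 (limma, adjusted p = 0.0474). Close to the threshold, Rab10 kept the call without 3-month replicate 2 (0.0467) and lost it without any other single array, with adjusted p of 0.133 and 0.118 without 3-month replicates 1 and 3 and of 0.157, 0.0729 and 0.103 without 12-month replicates 1, 2 and 3.

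Rab8a, which carries vesicles from the Golgi to the plasma membrane and the cilium, stood on the other side of this group. It read 12.75, 11.83 and 12.57 at 3 months and 10.37, 11.31 and 11.16 at 12 months. The 12-month arrays were all low, and the difference was -1.44 ± 0.37 (SE, n = 3; limma, adjusted p = 0.0607). Rab11a, the Rab of the recycling endosome, differed by 0.58 (adjusted p = 0.145) and Rab4b, of fast recycling, by -0.57 (0.191), both with groups that did not overlap. Rab25, an epithelial relative of Rab11 named here after its values were seen, differed by 1.87 (0.125), with 12-month replicate 2 (7.61) lying below 3-month replicate 2 (7.85). Rab15, also named after its values were seen, spread over 9.15, 12.02 and 11.41 on the 12-month arrays (1.04, 0.341).

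Among the Rab genes of regulated secretion 0 of 6 passed the test (limma). At an unadjusted p under 0.05, 0 were higher and 1, Rab3a, was lower, beside 13.6% and 16.9% of all named genes. Rab3a, the Rab of synaptic vesicles and insulin granules, read 15.00, 14.83 and 14.83 at 3 months and 14.07, 14.37 and 14.06 at 12 months. It was lower on every 12-month array, with a difference of -0.72 ± 0.22 (SE, n = 3) and a 95% interval of -1.25 to -0.18 (limma, adjusted p = 0.0878). Its paralogs Rab3b, Rab3c and Rab3d differed by -0.39, -0.31 and -0.16 (adjusted p = 0.324, 0.378 and 0.713), and their ages overlapped. Rab3a passed under 2 of 18 alternatives, among them normexp background correction (limma, adjusted p = 0.0385), and in 0 of 6 fits with 1 array left out. Nerve and Schwann cell markers moved the same way: 9 of their 10 tested genes were lower at 12 months, 2 past the test, with a median of -1.27, and their summed level was 13.15 to 13.83 at 3 months and 12.28 to 12.83 at 12 months, with Cdh19 above background on no array. Their part in the values of the Rab3 genes, which neurons also use, was not tested.

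Rab27a, which tethers insulin granules at the plasma membrane, was the only positive difference of this group. It read 13.43, 13.54 and 13.58 at 3 months and 13.55, 13.90 and 13.30 at 12 months. The ages overlapped and the difference was 0.07 ± 0.25 (SE, n = 3; limma, adjusted p = 0.865), with a 95% interval of -0.52 to 0.66, and it turned to -0.27 when arrays were shifted to a common 75th percentile. Rab26, linked to the maturation of secretory granules, read 12.95, 13.39 and 12.13 at 3 months and 12.20, 10.53 and 12.04 at 12 months. Its difference of -1.23 ± 0.54 (limma, adjusted p = 0.166) shrank to -0.70 without 12-month replicate 2, and 12-month replicate 1 lay above 3-month replicate 3. Of the 6 tested genes of this group, 5 had negative differences and 1 a positive one (16.7%, beside 43.5% of all named genes). The median was -0.35. Only Rab3a did not overlap between ages (16.7% lower, beside 22.2% of all named genes).

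**Figure D2:**
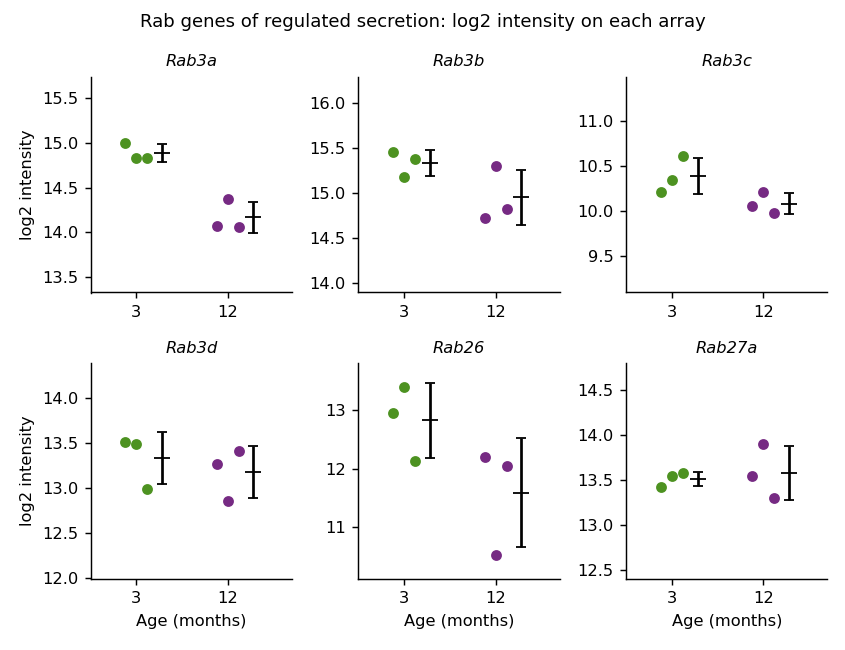
Normalised log2 intensity (vertical axis) of the 6 tested Rab genes of regulated secretion on each array at 3 and 12 months; the bar gives the mean and SD of 3 arrays. Rab3a is the 1 gene whose ages do not overlap, Rab27a sits at 13.30 to 13.90 on all arrays, and 12-month replicate 2 of Rab26 stands apart at 10.53.

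Between the endoplasmic reticulum and the Golgi, 0 of 11 tested genes passed the adjusted threshold, and 4 had unadjusted p under 0.05, of which 3 were higher and 1 lower at 12 months, beside 13.6% and 16.9% of all named genes. Rab2b, which acts in traffic at the Golgi, read 5.21, 6.45 and 6.36 at 3 months and 8.02, 6.94 and 8.74 at 12 months. The 12-month arrays were all high, with a difference of 1.90 ± 0.54 (SE, n = 3; limma, adjusted p = 0.0734). Rab6b, the neuronal form of the Golgi Rab6, went the other way, at 10.44, 10.06 and 9.19 at 3 months and 8.47, 8.77 and 8.56 at 12 months. Its difference was -1.29 ± 0.36 (limma, adjusted p = 0.0686). Rab1a and Rab1b, which carry cargo from the endoplasmic reticulum to the Golgi, differed by 0.60 each (0.138 and 0.226), and Rab18, found on lipid droplets and the endoplasmic reticulum, by 0.77 (0.0881). All 3 were higher on every 12-month array. The median of the group was -0.06.

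Among the Rab genes of late endosomes, lysosomes and autophagy, 0 of 9 passed. At an unadjusted p under 0.05, 1 was higher and 1 lower, beside 13.6% and 16.9% of all named genes. Rab24, linked to autophagy, differed by -0.79 ± 0.25 (limma, adjusted p = 0.0885) and Rab39a, of phagosomes and lysosomes, by 0.90 ± 0.36 (0.137), neither with overlap between ages. Rab7a, the Rab of late endosome to lysosome traffic, read 15.84, 15.75 and 16.02 at 3 months and 15.24, 15.51 and 15.28 at 12 months. It was lower on every 12-month array by a small margin (-0.53 ± 0.22, adjusted p = 0.157). The 4 remaining genes, of cilia and other roles, included none that passed. At an unadjusted p under 0.05, 1 was higher (25%), beside 13.6% of all named genes. This was Rab23, a regulator of Hedgehog signalling, at 4.50, 5.50 and 4.60 at 3 months and 5.78, 6.24 and 5.96 at 12 months. Rab23 was higher on all 12-month arrays, by 1.13 ± 0.33 (limma, adjusted p = 0.0790). Its signal was low, and with normexp background correction the difference was 0.43 (limma, adjusted p = 0.116). Rab28, Rab40b and Rab40c overlapped between ages.

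**Figure D3:**
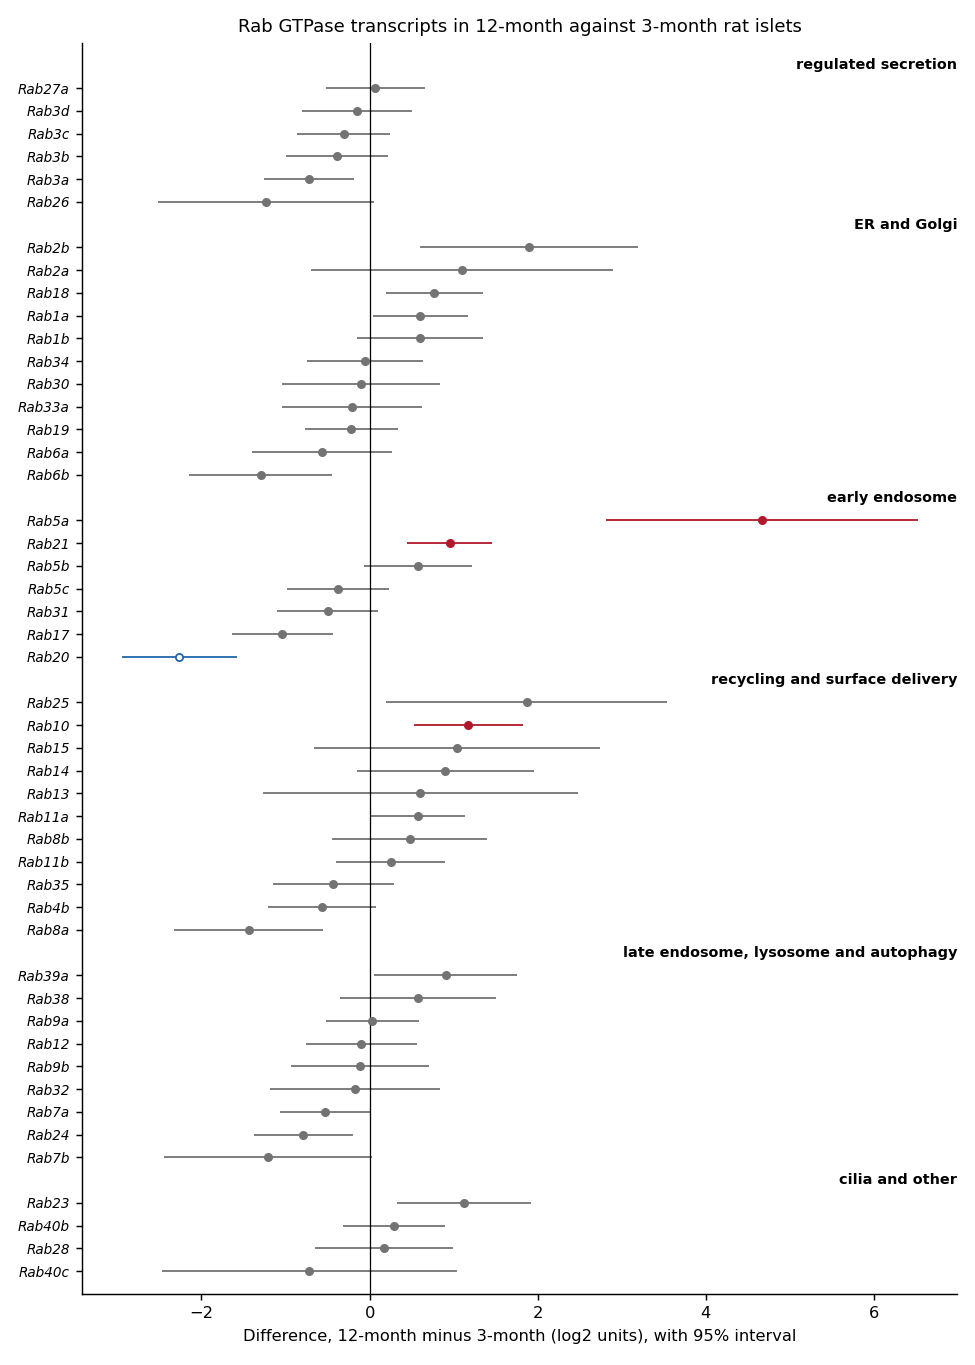
Difference in log2 intensity, 12-month minus 3-month, of the 48 tested Rab genes grouped by role (horizontal axis), with 95% intervals; red marks genes higher and blue genes lower at 12 months with adjusted p under 0.05. Rab5a (4.66), Rab10 (1.17) and Rab21 (0.96) are the red genes, Rab20 (-2.26) is the blue one, drawn open because no 12-month array was above background for it, and most intervals of the other 44 genes include 0.

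Over the family, 23 of 48 differences were positive and 25 negative, with measured values from -2.26 (Rab20) to 4.66 (Rab5a), and the median was -0.08 against -0.13 over all named genes. The median size of a difference was 0.58 on the log2 scale, against 0.56 over all named genes. The study's methods set a difference of over 2-fold and a nominal p under 0.05, and at that threshold 5 Rab genes (10.4%) were higher and 4 (8.33%) lower, beside 9.8% and 9.64% of all named genes. The 5 were Rab5a, Rab2b, Rab25, Rab10 and Rab23. The 4 were Rab8a, Rab6b and Rab17, and Rab20 by its measured values, which do not bound a fold. Groups did not overlap for 11 genes (22.9%) that were higher and 9 (18.8%) that were lower, beside 17.1% and 22.2% of all named genes. When arrays were shifted to a common 75th percentile in place of quantile normalisation, Rab5a still passed (adjusted p = 0.0286), while Rab10 (0.0871), Rab21 (0.0664) and Rab20 (0.0516) did not, and Rab8a did (-1.58, 0.0492).

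Closely related Rab genes were also set against each other by their age differences, array by array. Of 21 listed couples of relatives, 15 had both genes tested, and in 4 of them the within-array difference of the 2 genes did not overlap between ages. With 3 arrays of each age there are 20 arrangements, so the exact two-sided permutation p could not be lower than 0.1, which all 4 reached and which became 0.375 after Benjamini-Hochberg adjustment over the 15. Rab8a had the lower age difference of the Rab8 genes (Rab8a minus Rab8b -1.91, 95% interval -3.09 to -0.74), so the 2 Rab8 genes stood on opposite sides of 0, with Rab8b at 0.48. The age difference of Rab5a exceeded that of Rab5b by 4.09 (1.45 to 6.72) and that of Rab5c by 5.04 (2.40 to 7.68). Both values rest on the poorly measured 3-month side of Rab5a. Rab3a minus Rab3b was -0.33 (interval -0.60 to -0.06). In other couples the interval included 0, as for Rab1a and Rab1b (0.0024, interval -0.98 to 0.99), Rab11a and Rab11b (0.33, -0.42 to 1.08) and Rab6a and Rab6b (0.73, -0.64 to 2.10), the last of which leaves room for differences of over 2 log2 units.

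**Figure D4:**
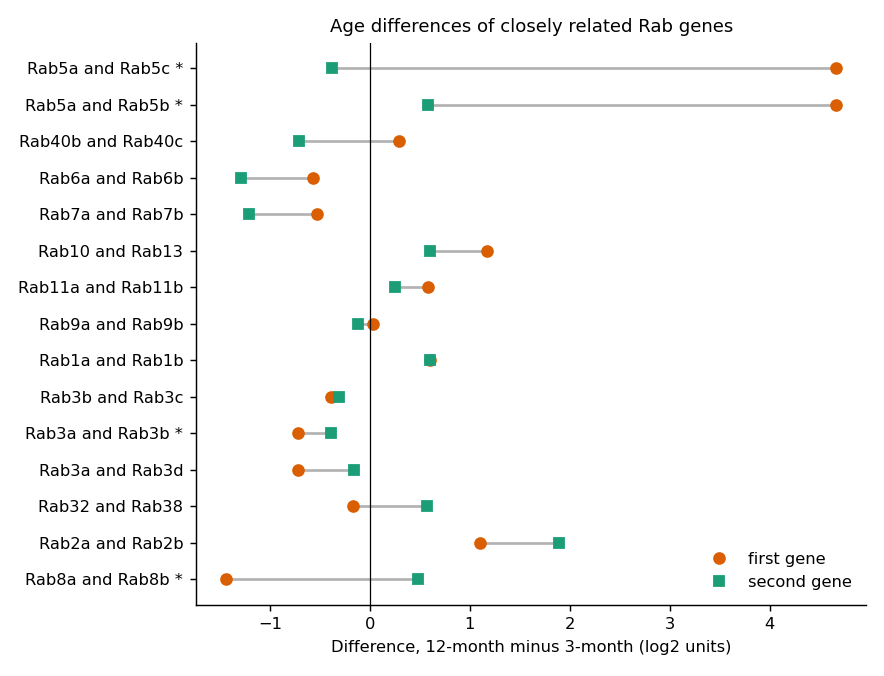
Age differences (12-month minus 3-month, log2 units, horizontal axis) of the 2 genes in each of 15 couples of related Rab genes, the first named as a circle and the second as a square; an asterisk marks couples whose within-array difference does not overlap between ages. Rab8a (-1.44) and Rab8b (0.48), and Rab5a (4.66) and its relatives Rab5b and Rab5c, lie farthest apart, while Rab1a and Rab1b coincide at 0.60.

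The proteins that load, activate, switch off and read Rab GTPases were taken from a list of 108 genes, of which 65 had a matched probe and 59 were tested. Of the 59, 2 (3.39%) passed with higher values at 12 months and 0 with lower values, with the background shares of 4.88% and 2.98%. Of these 2, Rims2 was above background on only 1 of 3 arrays at 3 months. At an unadjusted p under 0.05, 8 (13.6%) were higher and 12 (20.3%) lower, beside 13.6% and 16.9% of all named genes. The median difference was -0.10. The genes that passed were Chm, which encodes Rab escort protein 1, the carrier that presents newly made Rab proteins for prenylation, and Rims2, an active zone scaffold that binds Rab3.

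Chm read 5.37, 5.16 and 5.33 at 3 months and 7.27, 7.52 and 8.33 at 12 months. The 12-month arrays were all high, by 2.42 ± 0.32 (SE, n = 3; limma, adjusted p = 0.0120), and the call was lost, narrowly, without 3-month replicate 1 (0.0504). Its relative Chml, which encodes the other escort protein and was picked out after its values were seen, read 6.85, 6.45 and 6.17 at 3 months and 5.74, 5.53 and 5.16 at 12 months. All 12-month arrays of Chml were low, with a difference of -1.02 (adjusted p = 0.0721). The difference between these 2 genes was not tested. Of the other 6 genes for prenylation and recycling none passed, among them Gdi2, which encodes a GDP dissociation inhibitor that draws Rab proteins off membranes, at -0.36 (0.364).

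Rims2 read 3.05, 3.00 and 3.41 at 3 months and 5.37, 5.66 and 6.41 at 12 months. It was above background on 1 of 3 arrays at 3 months and on all 3 at 12 months, so it entered the test through its 12-month values and its low side was poorly measured. It passed with a measured difference of 2.66 ± 0.33 (SE, n = 3; limma, adjusted p = 0.0100), which was 0.77 with normexp background correction (0.0407). Rims1, also picked out after its values were seen, read 8.59, 7.59 and 7.73 at 3 months and 5.71, 7.22 and 5.44 at 12 months (-1.85, adjusted p = 0.0729), so its 12-month arrays were low. Madd, an exchange factor for Rab3 and Rab27, spread from 6.09 to 11.11 over the 12-month arrays (0.94, adjusted p = 0.583) and changed sign without 12-month replicate 3 (-0.33). Rph3al, which encodes Noc2, a Rab3 and Rab27 partner on granules, differed by -0.11 (0.790). Sytl4, which encodes granuphilin, was above background on 0 arrays at 3 months and on 1 at 12 months and was not tested.

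By class, 1 of 24 effectors (4.17%) and 1 of 8 prenylation and recycling genes (12.5%) rose, beside 4.88% of all named genes. Of 14 exchange factors 0 passed, and of 13 GTPase-activating proteins 0 passed. At an unadjusted p under 0.05, 1 exchange factor was higher and 2 lower, and 1 GTPase-activating protein was higher and 1 lower. The shares over all named genes were 13.6% and 16.9%. Groups did not overlap for 8 of the 59 regulators (13.6%) that were higher and 16 (27.1%) that were lower, beside 17.1% and 22.2% of all named genes. Of the 6 symbols that share the Rab prefix, 5 were tested and 0 passed. At an unadjusted p under 0.05, 1 (20%) was lower, beside 16.9% of all named genes. The lowest adjusted p was that of Rab11fip4, an effector of Rab11 (-0.67, limma, 0.113).

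**Figure D5:**
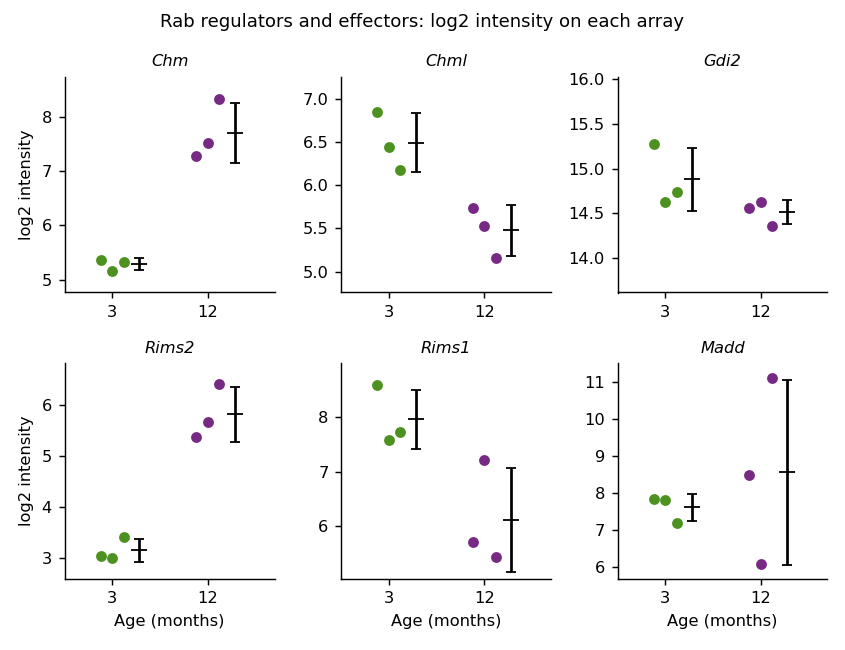
Normalised log2 intensity (vertical axis) of 6 genes that handle or read Rab GTPases on each array at 3 and 12 months, with the mean and SD of 3 arrays. Chm and Rims2 are higher on all 12-month arrays, Chml and Rims1 lower, and Madd spreads over 6.09 to 11.11 at 12 months.

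Other cell type markers moved with age beside the Rab genes. All 5 tested stellate and mesenchymal markers were higher at 12 months, 1 past the test, with a median of 1.53 and a summed level of 13.25 to 14.05 at 3 months and 14.63 to 15.99 at 12 months. Of 5 endothelial markers, 0 passed and 4 were lower (median -0.76, 15.68 to 16.05 against 14.82 to 15.59). Among the lower ones, Cdh5 was above background on no 12-month array, so its 12-month level is only a bound. Pecam1 went the other way (1.23). Of the 6 beta cell markers 2 rose, Slc2a2 by 4.11 (limma, adjusted p = 0.00369) and Slc30a8 by 3.71 (0.00904). The others did not pass: Iapp (0.95, 0.0532), Ins1 (0.10, 0.786), Ins2 (-0.12, 0.737) and Nkx6-1 (-0.22, 0.650). Of the 8 markers of the other endocrine cells 1 rose, Hhex by 1.68 (0.0236). The summed level of the 6 beta cell markers was 19.66 to 19.89 at 3 months and 20.00 to 20.18 at 12 months, and that of the 8 markers of the other endocrine cells was 19.46 to 19.60 and 19.80 to 19.95. Acinar and duct markers overlapped between ages, at 20.68 to 21.16 and 20.58 to 21.26, and at 13.70 to 14.29 and 13.12 to 14.50. Immune markers (13.17 to 14.59 and 12.96 to 13.86; Cd4 above background on no array) and red blood cell markers (16.19 to 16.83 and 15.32 to 16.69) overlapped as well. Their part in the Rab differences was not tested.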

How the data were processed

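Islet RNA of 3 rats at 3 months and 3 at 12 months was labelled with Cy3 and hybridised to 1-colour Arraystar arrays. The deposited scanner files hold spot intensity from Agilent Feature Extraction 11.0.1.1, background-subtracted and, per the file headers, not normalised between arrays. The authors also deposited a quantile-normalised log2 table of 12145 probes, which held 48 of the Rab probes, correlated with the scanner values (log2, normalised here) at r of at least 0.9996 on each array, and was used as an alternative.

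From the scanner intensity, log2 was taken, spots of a probe were averaged without outlier spots, and arrays were quantile normalised. Each array held 42136 spots of 24684 probes. Probes well above background on at least 3 of 6 arrays were kept, 17944 in all, of which 17941 could be tested and 70 held a missing value. Probes were named through RefSeq mRNA accessions (14274 matched), with the brightest probe per gene, and each Rab gene had 1 probe. No Rab probe was saturated. The model was limma 3.58.1 in R 4.3.3 with age as the only term and Benjamini-Hochberg adjustment over all tested probes, and was tested on simulated data. The number of arrays limits the precision, as does background for dim probes. The labels do not say whether an array holds 1 rat or a pool, while the paper's supplement names 3 rats of each age.

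The Rab genes, the lists of roles, regulators, relatives and markers, and the named genes were chosen with earlier results of these data known. Named genes were Rab genes past an adjusted p of 0.05, the 8 largest rises and 8 largest falls among the others whose ages did not overlap, the Rab genes of regulated secretion, regulators past the threshold, and Rph3al, Sytl4, Rims2, Madd and Gdi2; a further gene of this rule is not reported here. Alternatives were another normalisation, normexp background correction (offset 50), the authors' table, other filters, variance models and tests, replicate blocks, 4 of the arrays, and each array left out in turn.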

Additional observations from a re-analysis of the deposited data

How the results depend on the processing

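By limma, 4 Rab genes and 2 regulators passed an adjusted p of 0.05 and 9 Rab genes passed the 2-fold threshold. Fewer Rab genes passed the adjusted threshold with arrays shifted to a common 75th percentile (2, Rab5a and Rab8a) and with Student's test of the methods (2), and more with a trended, robust variance (9). Of all named genes, the shift called 4.05% higher and 4.98% lower, Student's test 1.29% and 1.09%, and the trended variance 6.69% and 4.93%. The shift moved the median of all named genes from -0.13 to -0.34, and the Rab median lay 0.15 above it, against 0.05. Under normexp background correction 6 Rab genes passed (Rab10, Rab17, Rab18, Rab21, Rab3a and Rab8a, without Rab5a and Rab20) and 7 regulators, beside 6.5% higher and 4.58% lower of all named genes. With probes above background on all 6 arrays or with the trended, robust variance, 4 regulators passed. Student's test called Rab21 (adjusted p = 0.0290) and Rab20 (0.0443) and neither Rab5a (0.0944) nor Rab10 (0.0861), and 0 regulators (Chm 0.0558, Rims2 0.0516). Further, 2 couples of relatives did not overlap, against 4, with all 6 arrays above background. The methods' paired test called 0% of all named genes either way after adjustment. With it 0 Rab genes and 0 regulators passed after adjustment and 5 Rab genes passed the 2-fold threshold. On the 4 arrays whose names end alike, 0, 0 and 5 did.

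Arrays with the same replicate number were not paired in the main fit, because the number of 12-month replicate 3 is not in the labels. The paper's supplement names a paired t-test. Deviations of same-numbered arrays from their group means correlated at -0.01, -0.31 and -0.26. These values cannot show whether arrays are paired, since deviations within 3 arrays depend on each other. A replicate block left 0 Rab genes and 0 regulators past the threshold, as did a block of the numbered arrays alone, and 8 and 9 Rab genes past the 2-fold threshold. Of all named genes, the replicate block left 0.393% higher and 0.0179% lower past the adjusted threshold, and the block of the numbered arrays 0% either way.

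With each array left out in turn, 0 (without 12-month replicate 1) to 4 (without 3-month replicate 2) Rab genes passed, 1 without 3-month replicate 1 or 12-month replicate 3, and 2 without 3-month replicate 3. In these fits 0.912% to 5.73% of all named genes were higher and 0.17% to 4.47% lower past the threshold. Of the regulators 1 (without 3-month replicate 1) to 3 passed, 7 to 12 Rab genes passed the 2-fold threshold, and 4 to 7 couples did not overlap, with 7 without 3-month replicate 3, 6 without 3-month replicate 2 and 6 without 12-month replicate 2 or 3. The Rab median ranged from -0.19 to 0.12 over the alternatives, within the spread between arrays (SD 0.20). Over single arrays left out, the difference ran up to 0.21 for Rab27a (without 12-month replicate 3) and 2.18 for Madd (without 12-month replicate 2). Signs turned for Rab27a (-0.27 with the 75th percentile shift and -0.092 without 12-month replicate 2), Rab3d (0.0042 without 12-month replicate 2), Madd (-0.54 with the block of the numbered arrays, -0.22 on the 4 arrays and -0.33 without 12-month replicate 3) and Rph3al (0.040 with the block of the numbered arrays). The causes were not tested, beyond the smaller number of arrays.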
